A study of Homo sapiens with 4 samples.

Results

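Growth factor receptor tyrosine kinases were followed across sorted fractions of Huh7, an established human hepatocellular carcinoma line. The set was the 10 genes EGFR, ERBB2, ERBB3, MET, IGF1R, INSR, FGFR1, FGFR2, FGFR3 and FGFR4, chosen by name. All 10 had a probe annotated with exactly 1 symbol, among 18377 genes measured in that way. The labels name no treatment. The line was parted by flow cytometry into CD133-positive and CD133-negative cells in one sort and into ALDH-positive and ALDH-negative cells in another (ALDH is aldehyde dehydrogenase). Total RNA of each fraction was read on 1 array, 4 arrays in all, so every fraction is 1 sample of 1 cell line. The labels do not say how ALDH was detected or whether the arrays came from separate cultures. With 1 array a group there is no replicate check, and every difference below is a description of 2 arrays with no test and no error. The order of a gene's levels over the arrays likewise cannot be set against any spread.

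A growth factor receptor tyrosine kinase spans the cell membrane, binds its ligand outside and, acting as a pair, phosphorylates itself and recruited adaptors inside. The signal runs through RAS to the MAP kinases and through PI3 kinase to AKT, and both routes induce inhibitors that feed back on the receptors. In liver, MET answers hepatocyte growth factor, EGFR its family of ligands, the insulin receptor portal insulin, and FGFR4 the gut hormone FGF19, which reports bile acid load.

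Values are log2 expression, so a difference of 1 is 2-fold. A gene counted as above the expression floor in a sort where the brighter of its 2 arrays reached 4.98, the median of all values. The probes of 9 of the 10 receptors lay above the floor on all 4 arrays, and that of FGFR2 lay below it on all 4. The median value per array ran from 4.92 to 5.04, and the correlation between arrays over all probes from 0.982 to 0.989. PROM1, the gene of CD133, was at 9.0 in CD133-positive and 5.32 in CD133-negative cells, as its label says. ALDH1A1 was at 11.1 in both ALDH fractions, and PROM1 was at 7.11 in the ALDH-positive and at 8.39 in the ALDH-negative fraction, so the ALDH labels were not checked by these transcripts. Of hepatocyte genes, 12 of 12 measured lay above the floor on every array. Of the markers of other cell types, 3 of 12 for leukocytes, 4 of 12 for fibroblasts and stellate cells and 1 of 11 for endothelium did so. The endothelial markers PECAM1 and CDH5 crossed the floor on the ALDH-negative array alone, and differed by -0.48 and -0.38 against it. CLDN5, the endothelial marker above the floor on every array, went the other way, at 5.95 (ALDH-positive) and 5.43 (ALDH-negative), a difference of 0.52. Of the leukocyte markers, LYZ differed by -0.69 (CD133) and 1.33 (ALDH), CD68 by 0.07 and -0.77, and CD14 by -0.29 and 0.42. These markers were named after their values were seen, and their part in the receptor and list differences was not tested.

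MET differed in the opposite direction to FGFR3 and FGFR4 in both sorts, as described below. The sequence before the starts of these genes is shown for that reason. Entries for 8 of the 10 receptors were found in a RefSeq table of GRCh38.p14; ERBB3 and FGFR1 had none. Each line gives the 250 bases before an annotated start, 5′ to 3′ on the plus strand, with capitals marking GGGCGG on either strand (read as CCGCCC on the other), the GC box bound by SP1-type factors. The MET window lies at chr7:116671946-116672195, that of FGFR3 at chr4:1793043-1793292, and those of FGFR4 at chr5:177086665-177086914 for its upstream start and chr5:177089300-177089549 for its downstream start.
MET: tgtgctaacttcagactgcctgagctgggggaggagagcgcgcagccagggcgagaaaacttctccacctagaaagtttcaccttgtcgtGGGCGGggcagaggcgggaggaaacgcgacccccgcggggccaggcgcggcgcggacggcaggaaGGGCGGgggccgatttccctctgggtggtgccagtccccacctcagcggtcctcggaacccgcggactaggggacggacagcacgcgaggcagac
FGFR3: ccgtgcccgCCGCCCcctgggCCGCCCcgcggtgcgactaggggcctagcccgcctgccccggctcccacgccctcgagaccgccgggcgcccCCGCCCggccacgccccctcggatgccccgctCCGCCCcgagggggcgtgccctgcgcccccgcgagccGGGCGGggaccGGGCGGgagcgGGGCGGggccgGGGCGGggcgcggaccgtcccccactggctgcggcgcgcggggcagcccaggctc
FGFR4 upstream start: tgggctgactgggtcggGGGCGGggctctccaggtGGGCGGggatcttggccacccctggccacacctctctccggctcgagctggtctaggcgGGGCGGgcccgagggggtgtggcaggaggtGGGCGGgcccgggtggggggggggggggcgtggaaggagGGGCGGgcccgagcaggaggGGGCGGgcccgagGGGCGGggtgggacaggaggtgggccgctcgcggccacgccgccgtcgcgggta
FGFR4 downstream start: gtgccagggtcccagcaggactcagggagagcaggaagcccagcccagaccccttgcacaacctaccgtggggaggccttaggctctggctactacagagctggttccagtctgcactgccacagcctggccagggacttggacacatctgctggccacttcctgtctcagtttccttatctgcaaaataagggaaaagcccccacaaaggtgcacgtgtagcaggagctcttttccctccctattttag
The MET window held the motif 2 times, the FGFR3 window 8 times, the upstream FGFR4 window 7 times and the downstream one 0 times. IGF1R, which differed in the directions of FGFR3 and FGFR4, had 2 in its window at 81.2% GC. EGFR, which differed in the directions of MET, had 2 in one window and 0 in the other. Any link between motif number and expression was not tested. GC content was 68.4% for MET, 86.8% for FGFR3 and 79.6% and 57.2% for the FGFR4 windows, where the median of all windows was 58%. At least 1 GGGCGG was found in 8 of the receptors' 14 windows, and 42.6% of 35116 windows of the same length held one. The TATA box letters TATAAA, held by 10.7% of all windows on either strand, were in none of the 4 windows shown. Nor was the CCAAT box, held by 32% of all windows, or the AP-1 letters TGANTCA, held by 6.57%. None of these 3 motifs can match the same bases as a whole GGGCGG. A match describes letters in a window and says nothing of binding, and the array's probes cannot tell the FGFR4 starts apart.

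**Figure D1:**
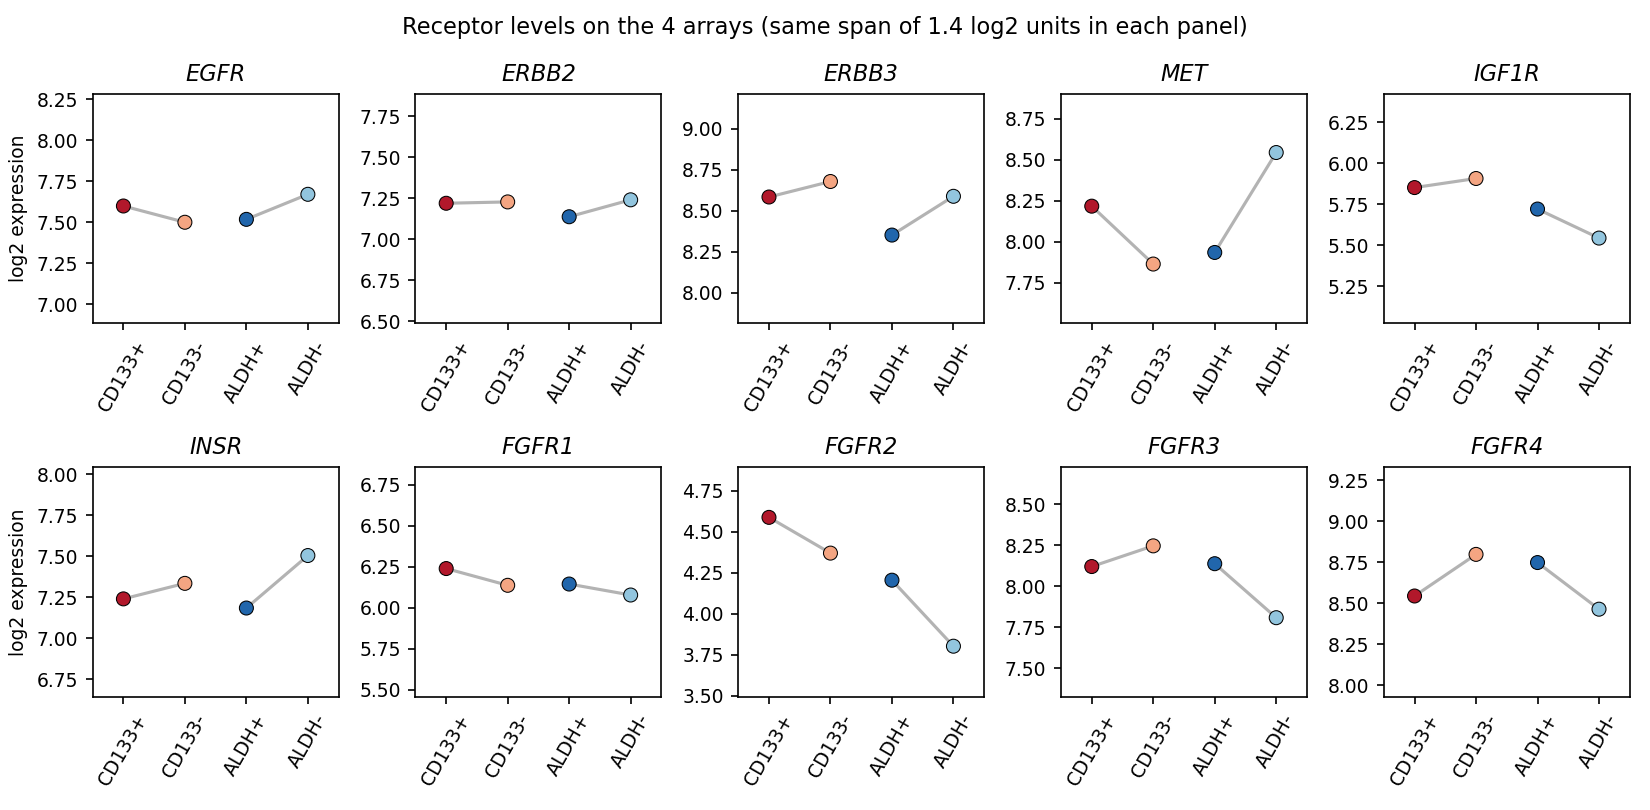
Log2 expression of each receptor (vertical axis) on the 4 arrays (horizontal axis), 1 point per array and a grey line joining the fractions of a sort. MET has its highest point in ALDH-negative cells (8.54) and its lowest in CD133-negative cells (7.86), while FGFR3 and FGFR4 have their lowest in ALDH-negative cells (7.81 and 8.46); levels are not comparable between panels.

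MET, the receptor of hepatocyte growth factor, had the largest difference of the 10 in each sort among those above the floor, and its differences ran in opposite directions. Its level was 8.22 with the CD133 marker and 7.86 without it, and 7.94 with the ALDH marker and 8.54 without it. It was thus 1.28-fold higher in CD133-positive cells (0.35) and 1.53-fold lower in ALDH-positive cells (-0.61). MET was the 1 receptor of 9 above the floor that reached 1.5-fold in the ALDH sort. In that sort 10.8% of the 11879 genes above the floor reached 1.5-fold either way, 6.6% lower and 4.15% higher, so 1 of 9 is near the background. A second quantile normalization put MET at -0.55 and removal of the trend with mean level put it at -0.57, both short of 1.5-fold. In the CD133 sort 17.9% of genes above the floor differed by as much as MET.

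The genes that govern MET's ligand were read next. HGF, the ligand itself, lay below the floor on all 4 arrays, at 2.90 to 3.06. SPINT1, which encodes an inhibitor of the proteases that activate hepatocyte growth factor, was at 6.75 (CD133-positive) and 5.55 (CD133-negative) in one sort and at 6.41 (ALDH-positive) and 7.32 (ALDH-negative) in the other. It was 2.30-fold higher in CD133-positive cells (1.20) and differed by -0.91 in the ALDH sort, so its arrays fall in the same order within each sort as those of MET. HGFAC, the gene of an activating protease, differed by 0.07 and 0.43. ST14, the gene of another, and SPINT2, that of a related inhibitor, passed the floor through the positive array alone in both sorts. Against the floor ST14 differed by 0.03 and 0.27 and SPINT2 by 0.29 and 0.26. PROM1, the sorted marker, differed by 3.68 and -1.28, in the same directions as MET and SPINT1; its part in their differences was not tested. In RNA of whole fractions, fewer cells that express a gene and less of its RNA per cell cannot be told apart.

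The FGF receptors above the floor, 3 of 3, were higher in ALDH-positive cells by 0.07 to 0.33 as deposited, and that direction held under every scaling tried; 48.5% of all genes above the floor were higher there. FGFR4, the main FGF receptor of hepatocytes, was at 8.54 (CD133-positive) and 8.80 (CD133-negative) in one sort and at 8.75 (ALDH-positive) and 8.46 (ALDH-negative) in the other. It differed by -0.25 between the CD133 fractions and by 0.28 between the ALDH fractions. FGFR3, whose activating mutations are known from skeletal dysplasia and bladder cancer, was at 8.12, 8.25, 8.14 and 7.81 on the same arrays, with differences of -0.13 and 0.33. Both genes were lowest in ALDH-negative and highest in CD133-negative cells, the reverse of MET within each sort. Their differences were ordinary in size. In the CD133 sort 60.9% of genes above the floor differed by as much as FGFR3 and 31.7% by as much as FGFR4. The shares in the ALDH sort were 34% and 40.8%.

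FGFR1, the receptor of many mesenchymal FGF signals, stayed between 6.08 and 6.24 over the 4 arrays and differed by 0.10 and 0.07. FGFR2, a gene of epithelial FGF signalling that is rearranged in bile duct cancer, was at 4.59 (CD133-positive) and 4.37 (CD133-negative) in one sort and at 4.21 (ALDH-positive) and 3.80 (ALDH-negative) in the other. All of these lie below the floor, and its differences of 0.22 and 0.40 are uncertain for that reason. Genes below the floor had a median difference of 0.07 (CD133) and 0.11 (ALDH), against -0.04 and -0.01 above it. None of the FGF receptors reached 1.5-fold. Of the 11591 genes above the floor in the CD133 sort 4.63% did, 2.74% higher and 1.89% lower.

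Around these receptors, KLB, the beta-Klotho co-receptor that FGFR4 needs for FGF19, was at 8.37 (CD133-positive) and 8.62 (CD133-negative) in one sort and at 8.08 (ALDH-positive) and 7.84 (ALDH-negative) in the other. It differed by -0.25 and 0.24, which are the directions of FGFR4 in both sorts. FGF19 went the other way, at 6.69, 6.46, 6.47 and 6.90, with differences of 0.23 and -0.43. FGF21, the fasting hormone that also uses beta-Klotho, lay below the floor, at 3.98 to 4.20. GPC3, a glypican known as a liver cancer antigen, differed by -0.32 and 0.25, and NRP1, a co-receptor for several growth factors, by -0.43 and 0.36. Of genes above the floor 21.6% (CD133) and 46.2% (ALDH) differed by as much as GPC3, and 11.1% and 30.1% by as much as NRP1. Others of the same list did not share both directions: FGFRL1 differed by 0.05 and 0.32 and IGF2R by 0.16 and -0.21. Mean log2 expression of the 12 hepatocyte genes was 9.83 (CD133-positive) and 10.2 (CD133-negative) in one sort and 9.86 (ALDH-positive) and 9.87 (ALDH-negative) in the other. Of these genes 10 were lower and 2 higher in CD133-positive cells, where 57.1% of all genes were lower. The 2 higher were TTR (0.99) and FGB (0.18), the genes of transthyretin and a fibrinogen chain. In the ALDH sort 6 were higher and 6 lower. The part of the hepatocyte genes in the FGFR4 difference was not tested.

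The ERBB receptors differed little. EGFR, the receptor of epidermal growth factor, was at 7.60 (CD133-positive) and 7.50 (CD133-negative) in one sort and at 7.52 (ALDH-positive) and 7.67 (ALDH-negative) in the other, with differences of 0.10 and -0.15. ERBB2, which has no known ligand and acts as a partner, stayed between 7.14 and 7.24. Its differences were -0.01 and -0.10, and the first turned positive after a second quantile normalization and after removal of the trend with mean level. ERBB3, a neuregulin receptor with a weak kinase that signals by recruiting PI3 kinase, was at 8.58, 8.68, 8.35 and 8.59, and differed by -0.09 and -0.24. All 3 were lower in ALDH-positive cells, by 0.10 to 0.24 as deposited and in the same direction under every scaling tried, where 51.5% of all genes above the floor were lower. ERBB4, the remaining member of the family, lay below the floor at 3.37 to 3.94.

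Most ligands of the ERBB family were dim. EGF lay below the floor on all arrays, at 3.88 (CD133-positive) and 3.08 (CD133-negative) in one sort and at 3.58 (ALDH-positive) and 4.25 (ALDH-negative) in the other. TGFA (3.54 to 3.99), EREG (4.20 to 4.93) and the neuregulin NRG1 (4.20 to 4.84) were also below it on all 4. HBEGF, the heparin-binding ligand, reached 5.25 (ALDH-positive) and 5.32 (ALDH-negative) and lay below the floor in both CD133 fractions. AREG, INS and IGF2 were not analysed here. No direction is read from ligands below the floor.

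The insulin and IGF receptors differed in opposite directions in the ALDH sort, each by an amount ordinary in size. There 35.4% of genes above the floor differed by as much as INSR and 60.1% by as much as the brighter IGF1R probe. INSR, the insulin receptor, was at 7.24 (CD133-positive) and 7.34 (CD133-negative) in one sort and at 7.19 (ALDH-positive) and 7.51 (ALDH-negative) in the other, with differences of -0.09 and -0.32. IGF1R, which drives growth in answer to IGF1 and IGF2, was at 5.85, 5.91, 5.72 and 5.54 by its brighter probe, with differences of -0.06 and 0.18. Its other probe gave 5.77, 5.91, 5.71 and 5.33, with -0.14 and 0.38, so both probes were highest in CD133-negative and lowest in ALDH-negative cells. IRS1, an adaptor shared by both receptors, differed by -0.01 and -0.60, and IRS2, another, by 0.29 and 0.11. IGF1 lay below the floor at 3.09 to 3.38, and IGFALS, which stabilises circulating IGF, was higher in ALDH-positive cells by 0.73.

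Genes that FOXO factors induce and insulin signalling lowers were read as a list of 14, INSR and ERBB3 among them. Between the CD133 fractions 2 of the 11 above the floor reached 1.5-fold, both higher, and the list median was 0.02, or 0.23 at a floor set to the 75th percentile. They were CCNG2 (0.84), an atypical cyclin of resting cells, and the stress protein gene SESN3 (0.60). Of all genes above the floor in that sort 4.63% reached 1.5-fold, 2.74% higher, and the median was -0.04. Between the ALDH fractions 2 of 12 reached 1.5-fold, both lower, and the median was -0.34. They were SESN3 (-0.90) and PCK1 (-0.88), the gluconeogenic carboxykinase, which lay below the floor in both CD133 fractions. Of all genes above the floor in the ALDH sort 10.8% reached 1.5-fold, 6.6% lower, and the median was -0.01.

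**Figure D2:**
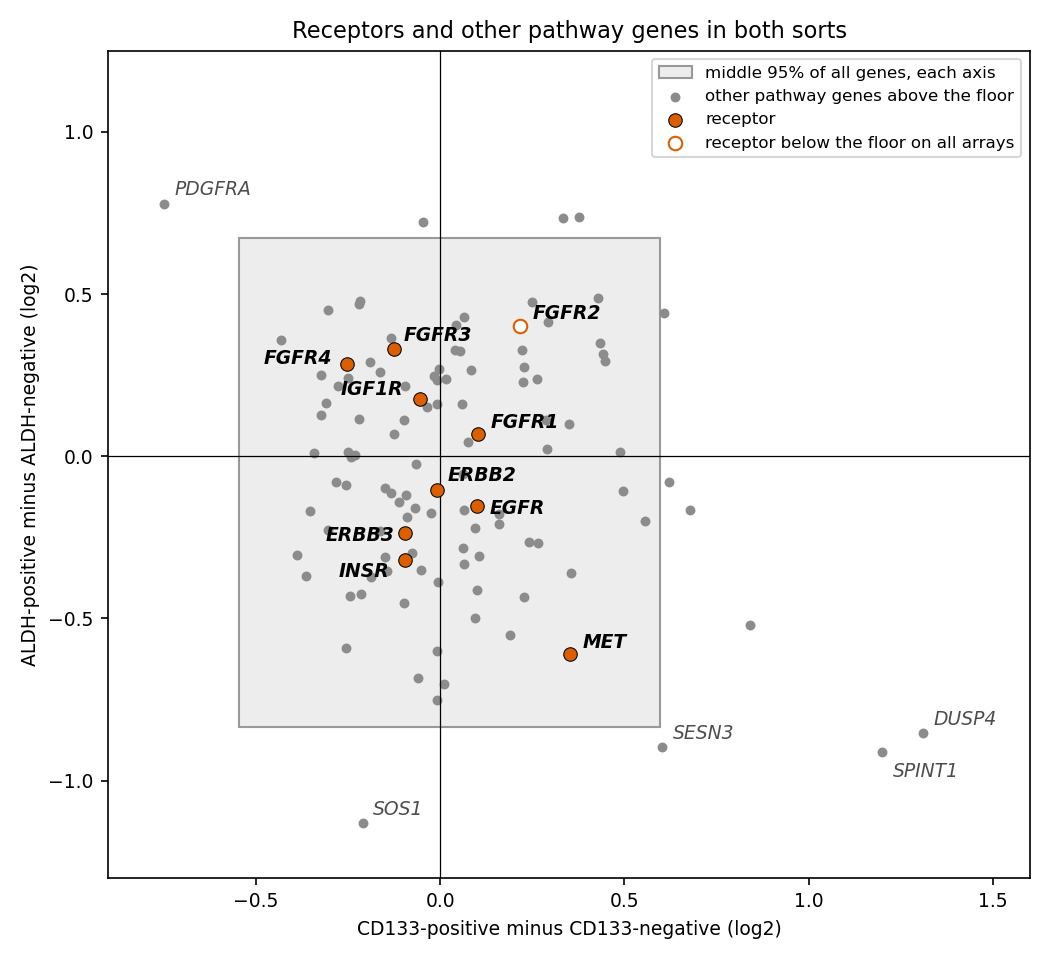
Difference in the CD133 sort (horizontal axis) against difference in the ALDH sort (vertical axis), both positive minus negative in log2 units, for the receptors (orange; open where below the floor) and the other genes of the pathway lists (grey), with a box around the middle 95% of all genes above the floor on each axis. All 10 receptors lie inside the box, MET nearest to a corner at 0.35 and -0.61, and SPINT1 and DUSP4 lie well outside it.

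As a set the receptors lay within the spread of all genes. In the CD133 sort 3 of the 9 above the floor were higher in the positive fraction and 6 lower, and their median was -0.06. All genes above the floor had a median of -0.04; 57.1% of them were lower and 42.9% higher. With a second quantile normalization or with the trend in level removed, the split was 4 higher and 5 lower. Between the ALDH fractions 4 were higher and 5 lower, and the median was -0.10, against -0.01 for all genes. None of the 9 reached 2-fold in either sort, where 0.88% of genes did between the CD133 fractions and 1.57% between the ALDH fractions.

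Signs were opposite between the sorts for 5 of the 9 (EGFR, MET, IGF1R, FGFR3 and FGFR4), and for 48.5% of 11293 genes above the floor in both, so the receptors' share is near the background. None of the 9 differed at least 1.5-fold in opposite directions in both sorts, as 1.39% of those genes did. The ALDH-negative array was the highest or the lowest of the 4 for 8 of the 9, against 53.8% of those genes. It was the highest for EGFR, ERBB2, MET and INSR and the lowest for IGF1R, FGFR1, FGFR3 and FGFR4. ERBB3 alone of the 9 had neither extreme there.

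The remaining receptor tyrosine kinases were set beside these. Of 43 measured, 17 were above the floor in the CD133 sort, where 1 reached 1.5-fold in each direction and the median was 0.01. The one lower was PDGFRA (-0.75), a mesenchymal growth factor receptor, at 4.68 in CD133-positive and 5.43 in CD133-negative cells. The one higher was EPHB6 (0.61), an ephrin receptor without kinase activity, whose dimmer array lay below the floor; set against the floor it differed by 0.15, and PDGFRA by -0.45. Between the ALDH fractions 19 were above the floor, and their median turned with the floor, from 0.11 as set to 0.25 without one, 0 with values raised to it and -0.30 at the 75th percentile of all values. PDGFRA was 0.78 higher there, at 5.56 and 4.78 (0.57 against the floor). RYK, a Wnt receptor with an inactive kinase, differed by -0.75 and TYRO3, a receptor of the TAM family, by -0.70. For this list and those below, the share of all genes above the floor that reached 1.5-fold was 4.63% (CD133 sort) and 10.8% (ALDH sort).

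**Figure D3:**
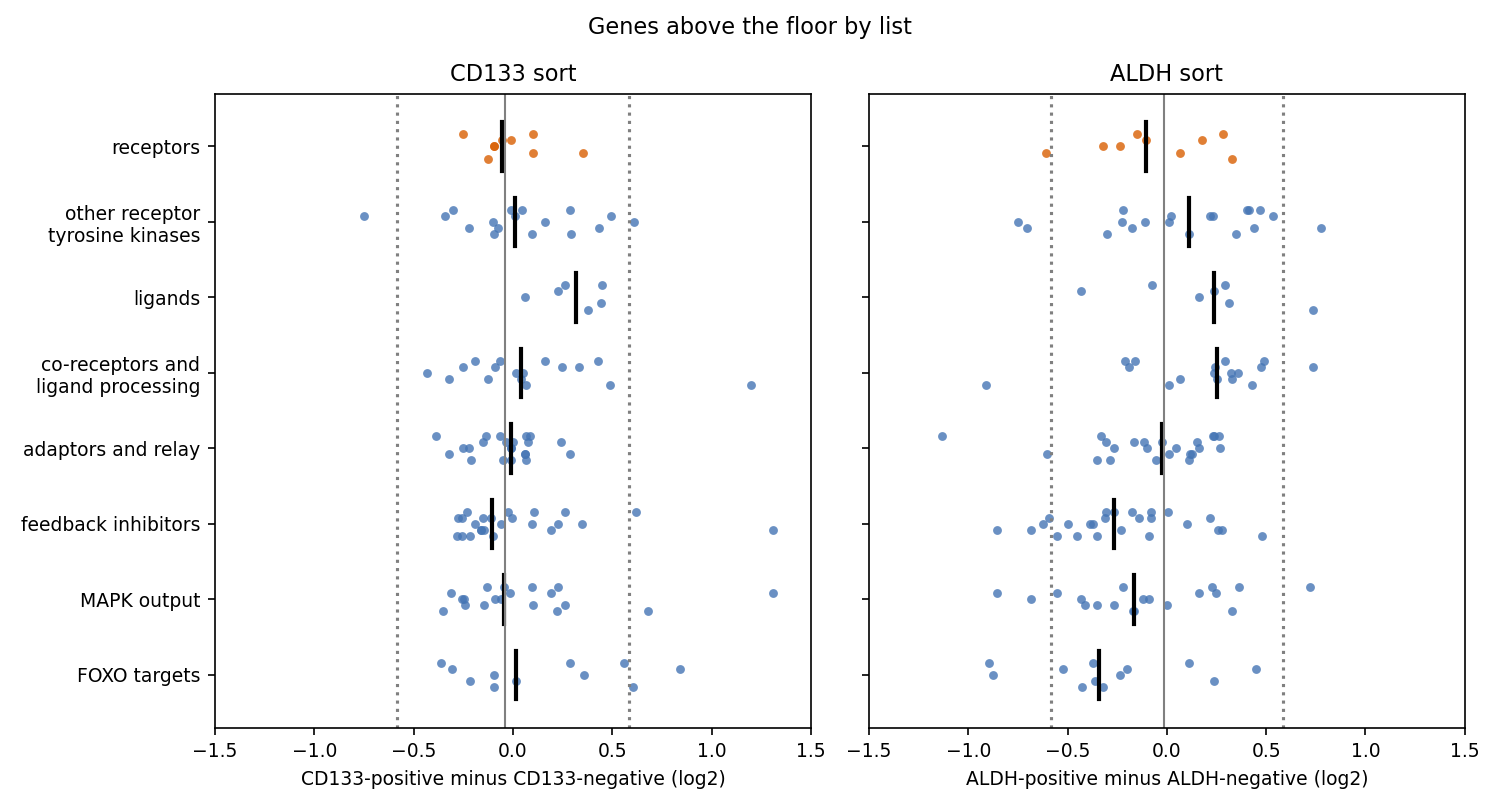
Difference of each gene above the floor (1 point per gene, horizontal axis, log2) by list (vertical axis) in either sort. Black bars are list medians, the grey line is the median of all genes and dotted lines mark 1.5-fold; of the 9 receptors above the floor MET alone passes a dotted line, in the ALDH sort.

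The ligand list held 6 genes above the floor in the CD133 sort, with a median of 0.32, and none reached 1.5-fold. NRG2 and FGF18 passed the floor through the CD133-positive array alone, which fixed their direction. Against the floor they differed by 0.04 and 0.35 (0.45 for FGF18 as deposited), and the largest difference with both arrays above it was that of FGF4 (0.44). With values raised to the floor the median over all measured ligands was 0. Between the ALDH fractions 7 were above the floor, and FGF8 (0.74) reached 1.5-fold. Their median turned with the floor: it was 0.24 as set, 0.10 without a floor, 0 with values raised to it and -0.43, the value of FGF19 alone, at the 75th percentile. Of the 17 co-receptors and ligand-binding or ligand-processing genes above the floor, SPINT1 in the CD133 sort and SPINT1 and IGFALS in the ALDH sort reached 1.5-fold, with medians of 0.04 (-0.09 at a floor set to the 75th percentile) and 0.25.

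Adaptors and relay kinases hardly differed in the CD133 sort. Of 22 above the floor, 0 reached 1.5-fold, the median was -0.01 and the largest difference was that of PIK3R1 (-0.39), the regulatory subunit of PI3 kinase. Between the ALDH fractions 2 of 23 reached 1.5-fold, both lower, and the median was -0.02. Of all genes above the floor in that sort 10.8% did so, 6.6% lower, so 2 of 23 is near the background. SOS1, the exchange factor that loads RAS with GTP, was at 5.57 (ALDH-positive) and 6.71 (ALDH-negative), a difference of -1.13, and 5.85 and 6.06 in the CD133 fractions. IRS1 was the other. A second quantile normalization put it at -0.58 and removal of the trend with mean level put it at -0.56, both short of 1.5-fold.

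Feedback inhibitors were mostly lower in ALDH-positive cells. Of 25 above the floor, 19 were lower and 6 higher, and the median was -0.27 (-0.16 with values raised to the floor), where all genes had -0.01 and 51.5% were lower. At least 1.5-fold lower were 4, with 0 higher, where 6.6% of all genes above the floor were lower and 4.15% higher by that much. DUSP4, a nuclear phosphatase of the MAP kinases, differed by -0.85, SPRY2, a sprouty inhibitor of the RAS route, by -0.68, the cytokine signal inhibitor SOCS2 by -0.62 and ERRFI1, which binds and blocks ERBB kinases, by -0.59. A second quantile normalization put ERRFI1 at -0.573 and removal of the trend with mean level put it at -0.575, both short of 1.5-fold. In the ALDH sort SOCS2 and SPRED3 reached the floor on the negative array alone, which fixed their direction. Against the floor they differed by -0.05 and -0.04. In the CD133 sort 16 of 24 were lower, where 57.1% of all genes were, with a median of -0.11 but a mean of 0.02. DUSP4 (1.31) and SPRED3 (0.62), both higher, reached 1.5-fold there, where 2.74% of all genes were higher by that much. DUSP4 was at 6.09 (CD133-positive) and 4.78 (CD133-negative) in one sort and at 5.49 (ALDH-positive) and 6.35 (ALDH-negative) in the other, an order within each sort that matches that of MET. Its CD133-negative value lay below the floor, and against the floor the difference was 1.10; that of SPRED3 was 0.34.

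The list of genes that MAP kinase signalling induces shares DUSP4, DUSP5, DUSP6, SPRY2, SPRY4 and SPRED1 with the feedback list. Of 19 above the floor, DUSP4 and the transcription factor gene FOS (0.68) reached 1.5-fold between the CD133 fractions, both higher, while the list median was -0.05 and its mean 0.06. DUSP6, an ERK phosphatase, differed by 0.26 (CD133) and -0.27 (ALDH), and 29.7% and 43.6% of genes above the floor differed by as much. EGR1 (-0.35 and -0.17) and MYC (-0.24 and -0.43) were lower in both sorts. Of the list 8 were higher and 11 lower in the CD133 sort, where 57.1% of all genes were lower. In the ALDH sort 6 were higher and 13 lower, where 51.5% of all genes were lower. In the ALDH sort DUSP4 and SPRY2 were lower as above, and SPHK1, the gene of a sphingosine kinase, was higher by 0.72, with a list median of -0.17.

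Among 12177 genes above the floor on at least 1 array, those nearest in pattern to a receptor were sought for the 3 receptors with the widest range over the arrays. Likeness was the Euclidean distance over 4 arrays between values taken relative to each gene's own mean, and 4 points make any match loose. Nearest to MET were PLS1, the gene of an actin-bundling protein of microvilli (distance 0.043, differences 0.32 and -0.66), TTC39A (0.064) and ITPK1 (0.066), an inositol phosphate kinase gene. Nearest to FGFR3 were TMEM185B (0.0097), LDB1 (0.012), a LIM-domain-binding cofactor gene, and MDFIC (0.018). Nearest to FGFR2, itself below the floor, were the chaperonin subunit gene CCT3 (0.049), the splicing factor gene SRSF8 (0.059) and the methyltransferase gene SETD6 (0.065).

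**Figure D4:**
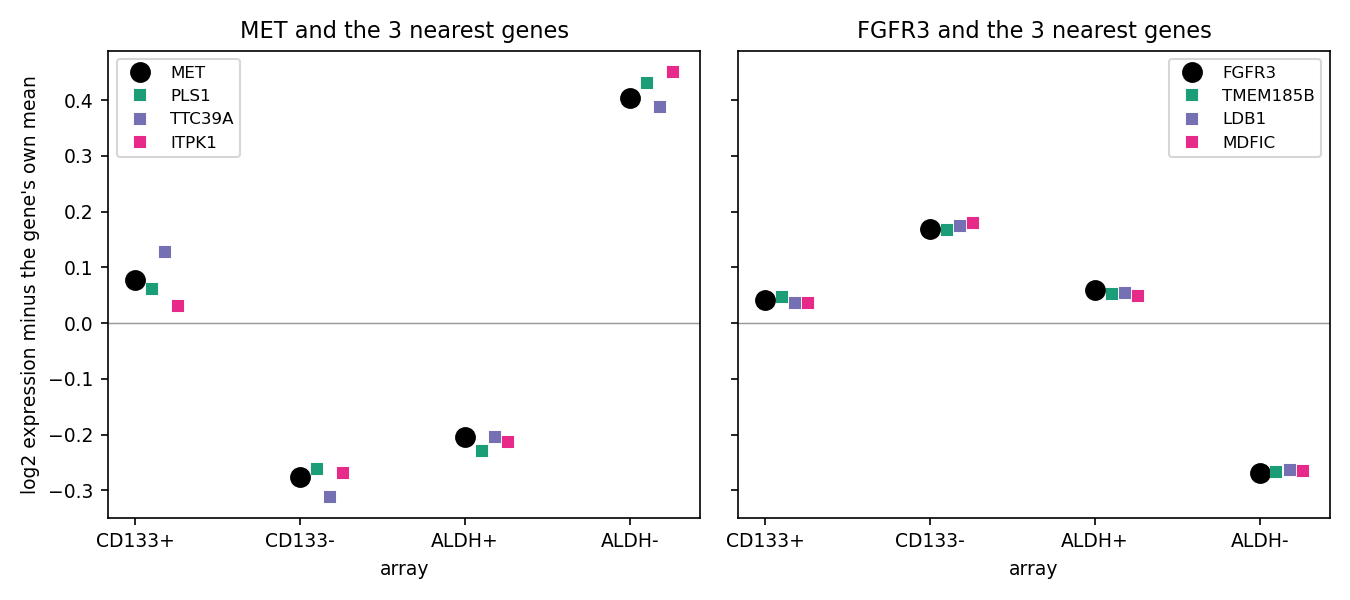
Log2 expression minus each gene's own mean (vertical axis) on the 4 arrays (horizontal axis) for MET and FGFR3 (black circles) and the 3 genes nearest to each (coloured squares, set slightly to the right). MET and its neighbours are highest in ALDH-negative cells, where FGFR3 and its neighbours are lowest.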

How the data were processed

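RNA of 4 sorted Huh7 fractions was measured on Affymetrix arrays, 1 per fraction. The authors deposited log2 expression values made with RMA (robust multi-array averaging), as the submitters' processing notes name it; that they are log2 was inferred from their range, 0.556 to 13.5. Software version and genome build are not given in the sources used here. RMA equalises the arrays' distributions, which hides any change common to most genes. Of 28869 probes, 19310 had exactly 1 symbol, 1752 several and 7807 were not listed. A gene took its probe with the highest mean. Differences are positive minus negative within a sort, counted at 1.5-fold and 2-fold above the floor. Lists and named genes followed a written rule (each list's members at 1.5-fold or its largest difference, and the main ligands), but members and lists were chosen with earlier results of these data known. GPC3, NRP1, FGFRL1, IGF2R, HGFAC, ST14, SPINT2, IRS2, DUSP6, EGR1 and MYC were named after their values were seen. No test was run, with 1 array a group. The calculation was checked on simulated data. Alternatives were other floors, probe means, single probes, centring, a second quantile normalization, values raised to the floor and, added after seeing the data, removal of a loess trend (span 0.4). Python 3.11.15, statsmodels 0.14.6 and matplotlib 3.10.9 were used.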

Additional observations from a re-analysis of the deposited data

Results flagged for a closer look

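A total of 4 genes of the pathway lists, none of them among the 10 receptors, differed at least 1.5-fold in opposite directions in the CD133 and ALDH sorts. They were 4 of 107 such genes above the floor in both sorts (3.74%), where 1.39% of all genes did so. The difference between the sorts was not tested. SPINT1 differed by 1.20 (CD133) and -0.91 (ALDH), and DUSP4 by 1.31 and -0.85. SESN3 differed by 0.60 and -0.90. PDGFRA ran the other way, at -0.75 and 0.78, with its dimmer array below the floor in both sorts; against the floor it was -0.45 and 0.57, both short of 1.5-fold.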

How the results depend on the processing

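No receptor reached 1.5-fold in the CD133 sort under any alternative run. In the ALDH sort the count of 1 fell to 0 after a second quantile normalization and after removal of the loess trend, an alternative added after seeing the data; MET ranged from -0.63 to -0.55. Each receptor kept its sign in both sorts under all alternatives but 2 cases: ERBB2 in the CD133 sort (up to 0.06), and FGFR2, which is 0 where values are raised to the floor. Of 107 pathway list genes above the floor in the CD133 sort, 8 (7.48%, against 4.63% of all genes) reached 1.5-fold, with 4 at a floor set to the 75th percentile and 5 with values raised to the floor. Among all genes, 133 were higher and 83 lower by that much of 6203 at the 75th percentile. With values raised to the floor they were 238 and 163 of 18377. In the ALDH sort 15 of 113 did (13.3%, against 10.8%), with 24 without a floor and 8 at the 75th percentile. Among all genes, 993 were higher and 966 lower by that much of 18377 without a floor. At the 75th percentile they were 125 and 423 of 6105. A higher floor tests fewer genes, and the pathway genes tested at other floors were not counted, so these alternative counts give no share. No paired analysis was possible because each group has 1 array. Signal near background limits FGFR2 and most ligands, and the number of arrays limits every value.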
